A study of Mus musculus with 8 samples.

Results

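The thyroid hormone system of differentiating oligodendrocyte precursor cells (OPCs) was followed through 9 genes: the receptors *Thra* and *Thrb*, their retinoid X receptor (RXR) partners *Rxra*, *Rxrb* and *Rxrg*, the deiodinases *Dio2* and *Dio3*, and the hormone targets *Klf9* and *Hr*. They were chosen by symbol from the deposited table of 23427 entries, and all 9 had an entry. OPCs are the glial progenitors that mature into oligodendrocytes (OLs), the cells that wrap axons in myelin. Primary OPCs of wild-type C57BL/6J mice were taken from pooled cortex tissue of 3 pups aged 7 postnatal days and purified by immunopanning, the capture of cells on a plate that carries an antibody to a surface protein (PDGFRα). Messenger RNA was sequenced on Day 0 and on Day 1, Day 2 and Day 3 of differentiation, with 2 libraries on each day (8 in all). Day 0 cells were in growth medium with PDGF-AA and the cytokine CNTF, and no T3 was added. From then on PDGF-AA was withdrawn and T3, the active thyroid hormone, was present at 40 ng/mL. Whether CNTF stayed is not clear, as the methods name the removal of PDGF-AA and a figure legend that of growth factors. Insulin, progesterone and sodium selenite were in the OPC medium before T3 was added. The sample labels describe a medium with serum, which can itself carry thyroid hormone, whereas the methods describe a defined medium, and the files do not settle which was used. T3, growth factor withdrawal and time in culture change together in this design and cannot be told apart. In bulk RNA, fewer cells of a type and less RNA per cell cannot be told apart either.

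Thyroid hormone enters cells through membrane transporters and is activated by DIO2 or inactivated by DIO3. T3 then binds nuclear receptors that sit on DNA, mostly as heterodimers with an RXR. Without hormone these receptors hold corepressors at their target genes, and with hormone they exchange them for coactivators. In the OL lineage T3 is a classical signal for OPCs to leave the cell cycle and to mature, which is why it is used in culture.

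The 5 receptor genes encode related proteins. The part shown is the P box of the first zinc finger, the residues with which thyroid hormone receptors and RXRs read the same short motif on DNA. The stretches of 36 bases below come from the coding sequence (GRCm38, plus strand, GENCODE M21), with the codons of the P box in capitals. That of *Thra* crosses the exon 4 to exon 5 junction (chr11:98757000-98757023 and chr11:98760876-98760887). That of *Thrb* crosses a junction at the same place (chr14:18002605-18002628 and chr14:18008569-18008580). The RXR stretches each lie in exon 4 of the transcript used (*Rxra* chr2:27741778-27741813, *Rxrb* chr17:34034036-34034071, *Rxrg* chr1:167627306-167627341).
Thra: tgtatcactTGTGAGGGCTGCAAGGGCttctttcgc
Thrb: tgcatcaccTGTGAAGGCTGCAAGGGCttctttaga
Rxra: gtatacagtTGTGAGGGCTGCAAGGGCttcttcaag
Rxrb: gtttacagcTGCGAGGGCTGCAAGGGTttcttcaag
Rxrg: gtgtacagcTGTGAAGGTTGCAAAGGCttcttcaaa
The capital letters encode the same residues in all 5 genes. *Thra* and *Thrb* had the same base at 31 of the 36 positions, and *Thra* and *Rxra* at 26. Despite this kinship, no stretch of 75 bases, the read length, was shared between the annotated transcripts of any 2 of the 5 receptor genes. Exact reads of that length, on the transcript strand, thus tell these 5 genes apart where the annotation is complete. Reads with mismatches, and stretches shared with other genes, were not compared.

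The markers followed the labels. The summed FPKM (fragments counted on a gene, divided by its length and by the library's mapped fragments) of 3 OPC markers was 756 to 769 on Day 0 and 45.9 to 75.8 on Day 3. That of 5 OL markers was 508 to 549 on Day 0 and 12374 to 17214 on Day 3. The estimated depth was 946000 to 1528000 fragments per library, lowest on Day 3, so that 1 FPKM of a gene of ordinary length rests on a few fragments. Values under about 3 estimated fragments were treated as not measurable. Of the other cell types, microglia, endothelial and mural markers each summed to 3.31 FPKM or less in every library. Neuron markers summed to 64.4 and 31.4 FPKM at Day 0 and to 233 and 115 at Day 3. Most of each of these sums was *Tubb3*, at 60.2 and 20.8 FPKM on Day 0 and 231 and 113 on Day 3. The means of *Snap25* and *Syt1* were lower on Day 3 than on Day 0 (0.739 against 5.31 and 1.04 against 1.89 FPKM). *Stmn2* did not exceed 0.862 FPKM, and *Rbfox3* was listed at 0 in 6 of 8 libraries. Of the 3 neuron markers tested by limma between Day 0 and Day 3, 1 was called higher (*Tubb3*) and 0 lower. Of all genes tested 12% and 26.3% were. *Snap25* had a log2 fold change of -1.79 that was not called (adjusted p = 0.0618, limma). With the replicate number as a block it was called lower (adjusted p = 0.0473, limma). The part of these neuron markers in the results was not tested. Astrocyte markers stood apart by replicate number: 7 markers summed to 120 to 167 FPKM in the replicate 1 libraries and to 354 to 952 in the replicate 2 libraries. In replicate 2 the sum also climbed with the days, from 354 to 522, 641 and 952. From Day 0 to Day 3 *Gfap* went from 14.7 to 45.5 FPKM in replicate 1 and from 154 to 603 in replicate 2, and *Aqp4* from 0.898 to 3.97 and from 22.9 to 84.8. The 7 markers did not all rise. In replicate 1 *Slc1a3* went from 32.5 to 17.0, *Slc1a2* from 13.4 to 11.3 and *Aldh1l1* from 1.27 to 0.595 FPKM, while *Aldoc* and *Gja1* were higher on Day 3. In replicate 2 *Slc1a3* was at 56.2 and 56.3 FPKM on these days, and the other markers were higher on Day 3. None of the 7 astrocyte markers was called between Day 0 and Day 3 by limma (0 had an unadjusted p under 0.05), but with the replicate number as a block *Gfap* (1.76, adjusted p = 1.26e-04) and *Aqp4* (1.62, adjusted p = 7.35e-04) were. The part of these astrocyte marker changes in the values of the members was not tested.

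Members were compared between days with limma on log2(FPKM + 1), in a fit over the 12208 genes that reached 1 FPKM in 2 or more libraries. A gene was called at an adjusted p under 0.05 over those genes. Adding 1 understates the change of genes of low FPKM. The labels do not say that the 2 libraries of a day came from separate isolations, although the methods call them independent, so the p-values measure the spread between these libraries. Of the 9 members, 7 passed the filter. *Dio3* and *Thrb* did not. The 5 members at 3 or more estimated fragments in every library were *Thra*, *Rxra*, *Rxrb*, *Klf9* and *Hr*.

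From Day 0 to Day 1, 2 of the 7 members tested rose (*Thra* and *Hr*) and 0 fell, where 5.04% of all genes tested rose and 7.56% fell. From Day 1 to Day 2, *Klf9* rose and 0 members fell, against 2.16% and 1.73% of all genes. From Day 2 to Day 3, 0 members were called by limma, none had an unadjusted p under 0.05, and 0.295% of all genes were called in either direction. From Day 0 to Day 3, 3 members rose (*Thra*, *Klf9* and *Hr*) and 0 fell, against 12% and 26.3% of all genes. The median log2 fold change of the 7 members tested was 0.90 between Day 0 and Day 3, against -0.31 for all genes tested.

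**Figure D1:**
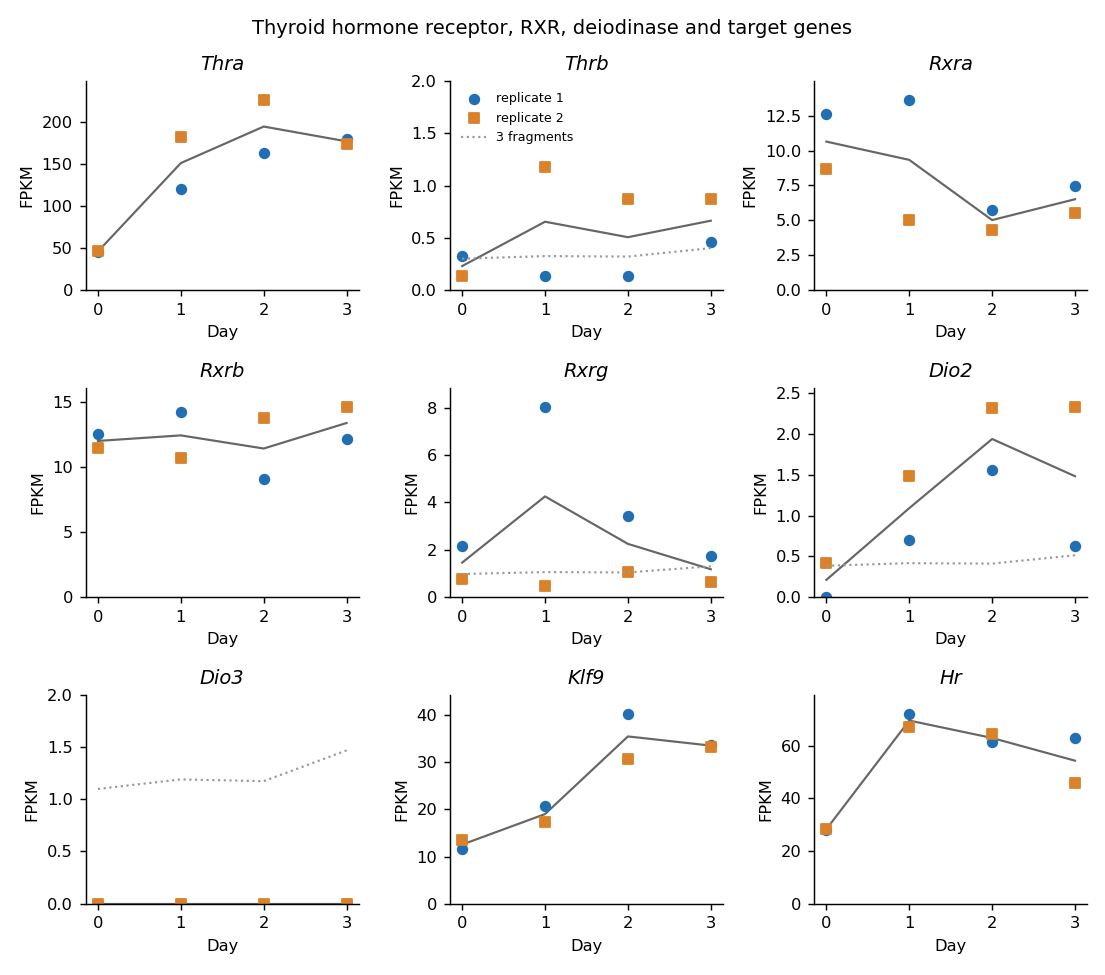
FPKM of the 9 members in each library against day, with a circle for replicate 1, a square for replicate 2 and a line through the mean of the 2 libraries. The dotted line, drawn for members below 10 FPKM, is the FPKM of 3 estimated fragments. *Thra*, *Klf9* and *Hr* lie higher on every later day than on Day 0, *Dio3* lies at 0 throughout, and *Thrb*, *Rxrg* and *Dio2* lie near the dotted line in several libraries.

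*Thra* encodes thyroid hormone receptor α, the receptor form that predominates in the brain (chromosome 11, 98740638 to 98769006, plus strand, GRCm38). It stood at 45.3 and 46.8 FPKM at Day 0 (replicate 1, then replicate 2), 120 and 182 at Day 1, 163 and 226 at Day 2, and 180 and 174 at Day 3. Every later library was above both Day 0 libraries, and the later days overlapped each other. The mean level was 3.28 times as high on Day 1 as on Day 0 and 3.84 times as high on Day 3. On the log2(FPKM + 1) scale the rise was 1.66 by Day 1 (SE 0.22, adjusted p = 0.00208, limma) and 1.92 by Day 3 (SE 0.22, adjusted p = 3.94e-04, limma). The steps after Day 1 did not pass the test (0.37 and -0.12, with 95% intervals from -0.13 to 0.88 and from -0.62 to 0.38). Within each replicate number the difference from Day 0 to Day 3 was 1.96 and 1.87.

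The value of *Thra* is a sum over transcripts. Thra-202, with 410 codons, has the length of TRα1, the form that binds T3, and Thra-201, with 492 codons, has that of TRα2, a splice form with another end that does not bind T3. The table holds a single value for the gene, so the rise cannot be assigned to either form. The last exon of Thra-201 also overlaps *Nr1d1*, which encodes the circadian repressor REV-ERBα on the opposite strand, by 263 bases. The libraries were stranded, but whether fragments were counted by strand is not given in the sources used here. *Nr1d1* itself ranged from 11.8 to 20.3 FPKM, below *Thra* in every library. Its log2 fold change by Day 1 was 0.33 and was not called (adjusted p = 0.251, limma). By Day 3 it was called higher, as *Thra* was (0.60, SE 0.17, adjusted p = 0.0239, limma). The part of *Nr1d1* fragments in the *Thra* values was not tested.

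*Thrb* encodes thyroid hormone receptor β, which is prominent in liver, cochlea and retina (chromosome 14, 17660261 to 18038090). It was at 0.326 and 0.136 FPKM at Day 0, 0.136 and 1.17 at Day 1, 0.137 and 0.877 at Day 2, and 0.459 and 0.870 at Day 3. These values correspond to about 1 to 11 fragments per library, and 5 of the 8 libraries were at 3 fragments or more. On Day 1 and Day 2 the replicate 2 library was the higher, with about 11 and 9 fragments against 1 and 1, so a change over the days was not detectable at this depth. *Thra* made up 99.3% to 99.9% of the summed FPKM of *Thra* and *Thrb* in every library.

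The balance of *Thrb* to *Thra*, the difference of their log2(FPKM + 1) values, was -5.13 and -5.40 on Day 0 and between -7.17 and -6.40 in the later libraries. Its slope was -0.50 per day (exact permutation test over 2520 arrangements of the libraries, two-sided, p = 0.0206, adjusted p = 0.0413 over 2 balances). With arrangements within replicate numbers the p was 0.0313. The slope rests on the pseudocount, since *Thrb* lay close to 0. *Thrb* held 3 or more fragments in only 5 of 8 libraries. The slope thus largely repeats the rise of *Thra* and gives no separate evidence on *Thrb*. With a pseudocount of 0.1 the slope was -0.27 (exact permutation p = 0.373). It rests on the Day 0 libraries as well. Without replicate 1 of Day 0 it was -0.37 (exact permutation p = 0.0651), and without replicate 2 of Day 0 it was -0.43 (exact permutation p = 0.0571).

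**Figure D2:**
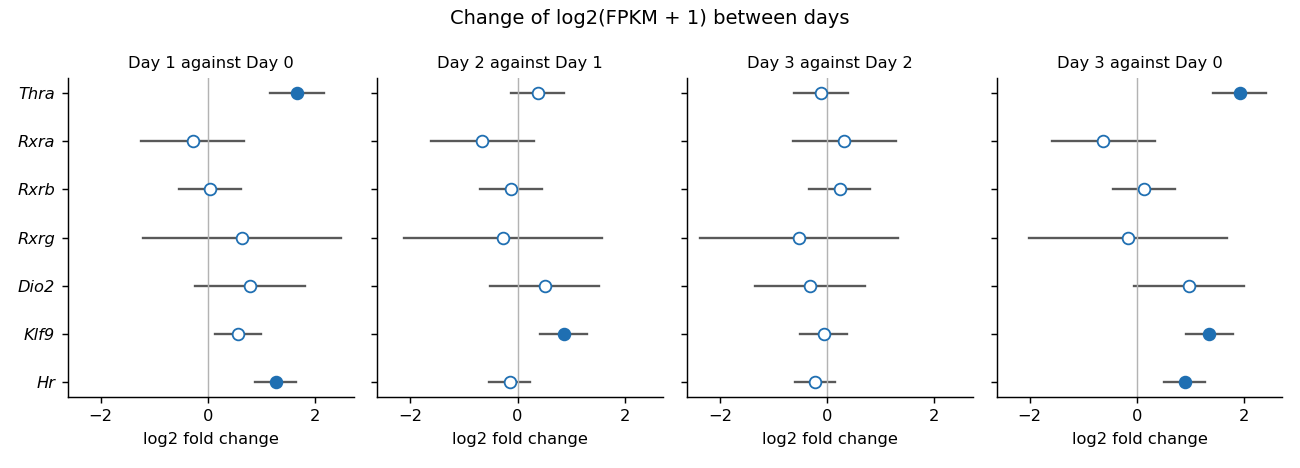
Log2 fold change of log2(FPKM + 1) for the 7 members tested, in each step between days and from Day 0 to Day 3 (limma, bars are 95% confidence intervals, filled points have an adjusted p under 0.05). *Thra* and *Hr* are filled from Day 0 to Day 1, *Klf9* from Day 1 to Day 2, none from Day 2 to Day 3, and all 3 from Day 0 to Day 3.

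RXRs are the common partners of the thyroid hormone, retinoic acid, vitamin D and other nuclear receptors. *Rxra* (chromosome 2, 27676440 to 27762957) was at 12.6 and 8.66 FPKM at Day 0, 13.6 and 5.05 at Day 1, 5.77 and 4.28 at Day 2, and 7.48 and 5.55 at Day 3. The Day 0 pair lay above the Day 2 and Day 3 pairs, while the Day 1 pair spanned nearly the whole range. The log2 fold change between Day 0 and Day 3 was -0.62, with a 95% interval from -1.58 to 0.34, and did not pass the test (SE 0.42, adjusted p = 0.270, limma). Replicate 1 was above replicate 2 on each of the 4 days.

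*Rxrb* (chromosome 17, 34031812 to 34038399) ranged only from 9.11 to 14.6 FPKM. It was at 12.5 and 11.5 FPKM at Day 0, 14.2 and 10.7 at Day 1, 9.11 and 13.8 at Day 2, and 12.2 and 14.6 at Day 3. All 4 days overlapped, and the log2 fold change between Day 0 and Day 3 was 0.14, with a 95% interval from -0.44 to 0.72 (adjusted p = 0.684, limma).

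*Rxrg*, the RXR that is known from OL lineage cells and from remyelination (chromosome 1, 167598384 to 167639623), differed most between the replicate numbers. It was at 2.14 and 0.764 FPKM at Day 0, 8.03 and 0.467 at Day 1, 3.43 and 1.06 at Day 2, and 1.72 and 0.623 at Day 3. Replicate 1 was the higher on every day, at about 8, 23, 9 and 4 fragments, while replicate 2 held about 2, 1, 3 and 1. The days overlapped throughout. Its log2 fold change between Day 0 and Day 3 was -0.16, and the 95% interval from -2.01 to 1.68 covers large changes in either direction (adjusted p = 0.887, limma).

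**Figure D3:**
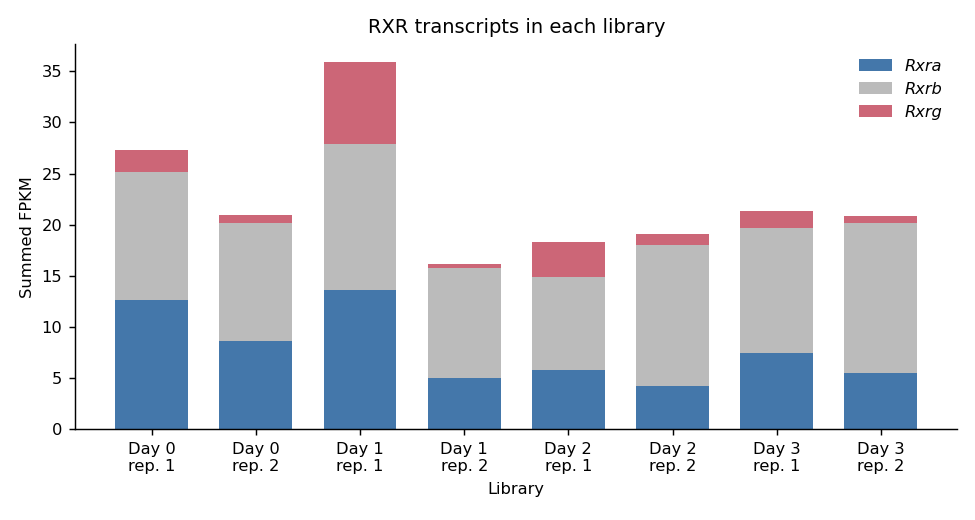
Stacked FPKM of *Rxra*, *Rxrb* and *Rxrg* in each library. The sum runs from 16.2 to 35.9 FPKM, both extremes are Day 1 libraries, and the *Rxrg* share is the larger in replicate 1 on every day.

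The share of *Rxrg* in the summed RXR FPKM ran from 7.84% to 22.4% in replicate 1 and from 2.88% to 5.53% in replicate 2. *Rxrb* made up 39.6% to 72.1% of the sum and was the largest RXR in 7 of 8 libraries. The balance of *Rxrg* to *Rxra* plus *Rxrb* had a slope of 0.0085 per day (exact permutation test, two-sided, p = 0.975, adjusted p = 0.975 over 2 balances). The ratio of *Thra* to the summed RXR FPKM was 1.66 and 2.24 on Day 0 and between 3.34 and 11.8 in the later libraries. The lowest of these, Day 1 replicate 1, is the library with the highest *Rxra* and *Rxrg*.

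Deiodinases are selenoproteins. Their active site holds selenocysteine, which is encoded by a TGA codon that would otherwise end translation, so their coding sequences are shown around that codon. In the stretches below the in-frame TGA is in capitals (GRCm38, GENCODE M21). That of *Dio2* lies in exon 2 on the minus strand (chr12:90729808-90729840), and that of *Dio3* in exon 1 on the plus strand (chr12:110279724-110279756).
Dio2: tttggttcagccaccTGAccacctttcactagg
Dio3: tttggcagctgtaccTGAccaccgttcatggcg
The annotated coding sequence of *Dio2* has 2 in-frame TGA codons and that of *Dio3* has 1. The other TGA of *Dio2* lies close to the stop codon (chr12:90729412-90729441).
Dio2 end: aatttcagcaagagaTGAattctagattag

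*Dio2* encodes the enzyme that converts the prohormone T4 into T3 and is known in the brain mainly from astrocytes. The authors cite work that ties DIO2 synthesis to OL differentiation through the RNA-binding protein Sbp2l. *Dio2* stood at 0 and 0.420 FPKM at Day 0, 0.701 and 1.48 at Day 1, 1.55 and 2.32 at Day 2, and 0.631 and 2.33 at Day 3. These were about 0 to 18 fragments per library. Each library after Day 0 was above both Day 0 libraries, and replicate 2 was the higher on every day. The log2 fold change between Day 0 and Day 3 was 0.97, with a 95% interval from -0.06 to 1.99, and did not pass the test (SE 0.45, adjusted p = 0.122, limma). With the replicate number as a block the adjusted p was 0.0503. Without replicate 1 of Day 3 the log2 fold change was 1.48 and passed (adjusted p = 0.0456, limma). Astrocyte markers were higher in replicate 2 as well, and their part in the *Dio2* values was not tested.

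*Dio3*, which inactivates T4 and T3, was listed at 0 in all 8 libraries. For a gene of its length, 3 fragments correspond to 0.967 to 1.56 FPKM in these libraries, so levels below that cannot be told from 0. *Dio1*, the deiodinase of liver and kidney, was also listed at 0 in every library. Of the other genes that handle the hormone, *Crym*, which encodes a cytosolic T3-binding protein, was listed at 0 throughout. *Ttr*, a plasma carrier of T4, and *Iyd*, which recycles iodide, did not exceed 0.534 FPKM, under 3 fragments. Thus 0 of the 4 genes of this list passed the filter.

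*Klf9* encodes a Krüppel-like zinc finger repressor that is induced by T3 in neural cells (chromosome 19, 23141226 to 23168134). It was at 11.6 and 13.5 FPKM at Day 0, 20.7 and 17.3 at Day 1, 40.3 and 30.6 at Day 2, and 33.7 and 33.3 at Day 3. Both Day 1 libraries lay between the Day 0 pair and the later ones, and Day 2 and Day 3 overlapped. By Day 1 the log2 fold change was 0.56, with a 95% interval from 0.13 to 1.00, and did not pass the test (SE 0.19, adjusted p = 0.0961, limma). From Day 1 to Day 2 it was 0.86 (SE 0.19, adjusted p = 0.0470, limma). This call was lost with every library left out in turn, among them libraries of days outside the step, with adjusted p from 0.0630 to 0.164. From Day 0 to Day 3 the mean level rose 2.67 times, which was 1.35 on the log2 scale (SE 0.19, adjusted p = 0.00103, limma).

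*Hr* encodes Hairless, a nuclear corepressor that binds thyroid hormone receptors and is itself a T3-induced gene in brain (chromosome 14, 70552212 to 70573548). It was at 28.1 and 28.5 FPKM at Day 0, 72.1 and 66.9 at Day 1, 61.6 and 64.3 at Day 2, and 62.9 and 45.7 at Day 3. Every later library exceeded both Day 0 libraries, and the means were highest on Day 1. The mean was 2.46 times as high on Day 1 as on Day 0, a log2 fold change of 1.27 (SE 0.17, adjusted p = 0.00208, limma). It stayed above Day 0 on Day 3 (0.90, SE 0.17, adjusted p = 0.00383, limma). The steps after Day 1 were -0.14 and -0.23, with 95% intervals from -0.52 to 0.24 and from -0.61 to 0.16, and passed no test.

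*Hr* and *Klf9* were thus called at different steps. Whether their rises from Day 0 to Day 1 differed was not tested. Of the 9 members, *Thra* had the highest FPKM, a level per length, on every day, followed by *Hr* and *Klf9*. On Day 0 *Klf9*, *Rxrb* and *Rxra* followed *Hr* with ranges that overlapped from each to the next. From Day 1 on *Klf9* lay above all RXR genes without overlap. On Day 1 *Rxrb*, *Rxra*, *Rxrg*, *Dio2* and *Thrb* formed a chain of overlapping neighbours, while on Day 2 and Day 3 *Rxrb* lay above *Rxra* and *Rxra* above *Rxrg* without overlap. *Dio3* came last on every day.

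The replicate series was examined after the values were seen, with day in the model. Over all genes, 1.05% were called between replicate 2 and replicate 1, and 0 of the 7 members tested were among them (limma), although 3 of the 7 had an unadjusted p under 0.05. *Rxrg* had the largest difference, -1.33 on the log2 scale (SE 0.34, adjusted p = 0.158, limma), followed by *Rxra* with -0.63 (SE 0.21, adjusted p = 0.273) and *Dio2* with 0.62 (SE 0.24, adjusted p = 0.368). The sign was the same on each of the 4 days for these 3 genes. *Klf9* and *Hr* differed by -0.11 and -0.12. Of the 7 astrocyte markers 5 were called, all higher in replicate 2, among them *Gfap* by 3.55 and *Aqp4* by 3.97. Markers of other cell types were called too: the OPC marker *Pdgfra* was lower in replicate 2 by 1.81 and the neuron marker *Tubb3* by 1.15, while the OL marker *Mag* was higher by 0.69 (adjusted p = 0.0461, 0.00350 and 0.0425, limma). With median ratio scaling, which equalises the typical gene between libraries, *Pdgfra* was not called (adjusted p = 0.0593, limma). The part of these cell types in the values of the members was not tested.

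**Figure D4:**
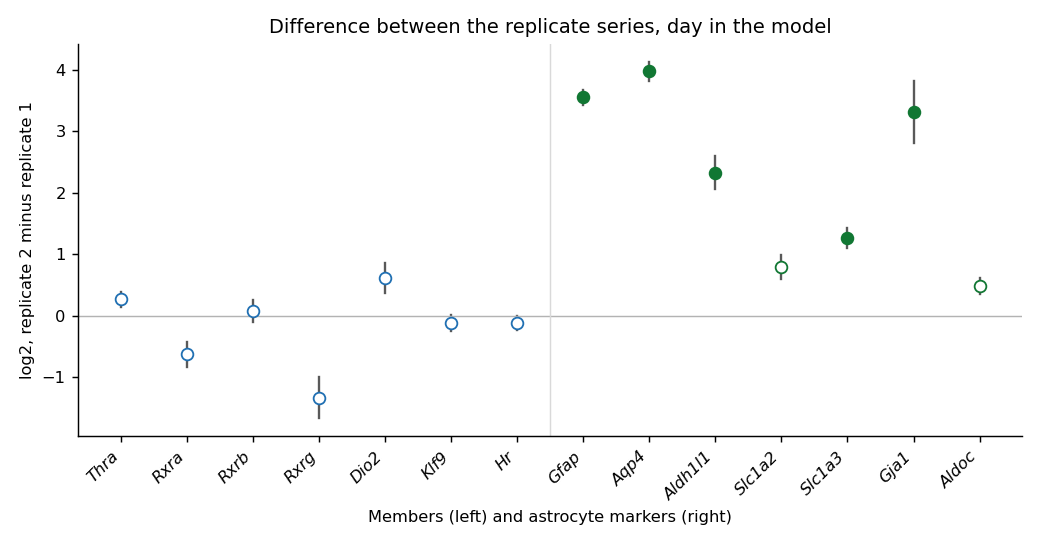
Log2 difference of replicate 2 minus replicate 1, with day in the model, for the 7 members tested and 7 astrocyte markers (limma, bars are 1 SE, filled points have an adjusted p under 0.05). No member is filled, with *Rxrg* lowest at -1.33, whereas 5 astrocyte markers are filled, up to 3.97.

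Transporters bring the hormone to its receptors. Of 6 transporter genes 3 were tested, and from Day 0 to Day 3, 0 rose and 1 fell by limma, where 12% and 26.3% of all genes did (median log2 fold change -0.65, against -0.31 for all genes). The 1 that fell was also the only one of the 3 with an unadjusted p under 0.05. *Slc7a5*, the light chain LAT1 of an amino acid transporter that also carries thyroid hormones, was at 58.6 and 42.5 FPKM at Day 0, 9.05 and 10.5 at Day 1, 5.61 and 9.62 at Day 2, and 6.52 and 6.54 at Day 3. Both Day 0 libraries stood far above all others. Its log2 fold change was -2.25 by Day 1 (SE 0.27, adjusted p = 0.00159, limma) and -2.76 by Day 3 (SE 0.27, adjusted p = 2.20e-04, limma).

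*Slc3a2*, the heavy chain of the same transporter, was at 44.1 and 42.2 FPKM at Day 0, 23.9 and 20.1 at Day 1, 24.6 and 21.8 at Day 2, and 38.1 and 50.9 at Day 3. It fell by Day 1 (-0.95, SE 0.18, adjusted p = 0.0120, limma), and on Day 3 it overlapped Day 0 (0.03, adjusted p = 0.910, limma). The call by Day 1 was lost without either Day 0 library or replicate 2 of Day 1 (adjusted p = 0.0772 to 0.0946, limma).

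*Slc7a8*, which encodes the related light chain LAT2, was at 3.23 and 2.42 FPKM on Day 0 and 0.909 and 2.07 on Day 3, a log2 fold change of -0.65 that was not called (SE 0.37, adjusted p = 0.196, limma). *Slc16a10* (MCT10) and *Slco1c1* (OATP1C1, a T4 transporter of brain vessels and astrocytes) did not pass the filter. *Slc16a10* was at 1.69 and 0.907 FPKM on Day 0, about 19 and 8 fragments. Its later libraries held about 0 to 3 fragments, at no more than 0.279 FPKM, and its change was not tested. *Slco1c1* did not exceed 1.31 FPKM. *Slc17a4* was listed at 0 in all libraries.

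Corepressors hold target genes silent when the receptors carry no hormone. Of 5 such genes, all of them tested, 0 rose and 3 fell from Day 0 to Day 3 by limma (median log2 fold change -0.92), against 12% and 26.3% of all genes and their median of -0.31, and 4 had an unadjusted p under 0.05. The genes that fell were *Gps2* by 1.31, the β-transducin-like *Tbl1x* by 1.29 and the deacetylase *Hdac3* by 0.92. *Tbl1xr1*, of the same list and named after its values were seen, had a log2 fold change of 0.11 that was not called (adjusted p = 0.657, limma). Without replicate 2 of Day 0 the calls of *Tbl1x* and *Hdac3* were lost (adjusted p = 0.0845 and 0.0502, limma), and without replicate 2 of Day 3 that of *Tbl1x* (0.0611). *Ncor1*, a corepressor that docks directly on the receptors, had a log2 fold change of -0.29 that was not called and that turned to 0.017 with median ratio scaling. From Day 1 to Day 2 it fell by 0.64 (SE 0.13, adjusted p = 0.0346, limma). That call was lost with median ratio scaling, with no trend and without any 1 of the Day 0, Day 1 or Day 2 libraries (adjusted p = 0.0811 to 0.202, limma).

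Of 8 coactivators, 1 rose and 4 fell, against 12% and 26.3% of all genes (median log2 fold change -0.45, against -0.31). *Kat2b*, an acetyltransferase also known as PCAF, went from 6.84 and 8.55 FPKM on Day 0 to 22.1 and 28.8 on Day 3 (1.60, SE 0.22, adjusted p = 9.19e-04, limma). *Ncoa1*, a p160 coactivator, fell by 0.94, the arginine methyltransferase *Carm1* by 0.86, the Mediator subunit *Med1* by 0.58, and the acetyltransferase *Ep300* by 0.55. The last was named after its values were seen. *Carm1*, *Med1* and *Ep300* were not called with median ratio scaling (adjusted p = 0.112, 0.243 and 0.257, limma), where the median of all genes lay at -0.04 and not at -0.31. With the same scaling the p160 coactivator *Ncoa2*, also named after its values were seen, was called higher (0.65 in place of 0.35, adjusted p = 0.0174, limma). Leaving out a Day 0 or Day 3 library ended calls of each of the 4 that fell. *Ncoa1* was lost without either Day 0 library or replicate 2 of Day 3 (adjusted p = 0.0524 to 0.0909, limma), and *Carm1* without replicate 2 of Day 0 or replicate 1 of Day 3 (0.160 and 0.114). *Med1* and *Ep300* were lost whichever library of those days was left out (0.0795 to 0.153 and 0.0708 to 0.137).

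**Figure D5:**
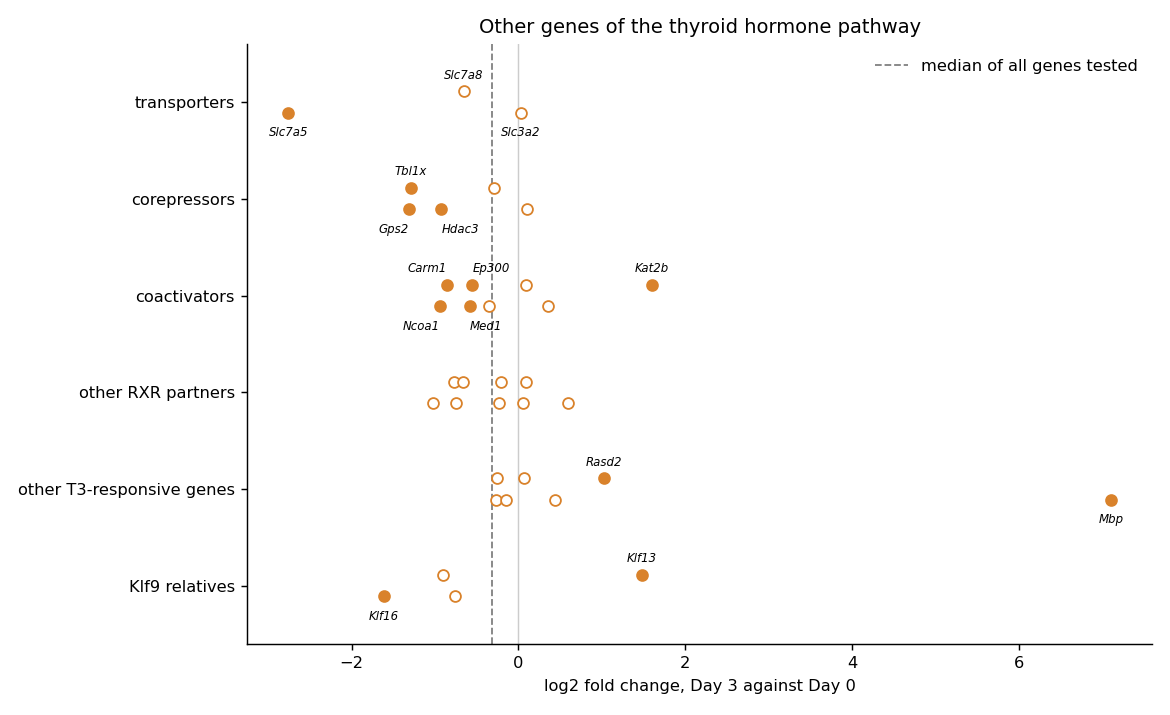
Log2 fold change from Day 0 to Day 3 of the tested genes of 6 lists around thyroid hormone action (limma, filled points have an adjusted p under 0.05, points are staggered vertically for legibility, and called genes and transporters are named). The dashed line is the median of all genes tested, -0.31. *Slc7a5* lies lowest at -2.76, and *Mbp* lies highest at 7.11.

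Of 11 other nuclear receptors that pair with RXRs, among them the retinoic acid, vitamin D, liver X and PPAR receptors, 9 were tested. By limma 0 of the 9 were called from Day 0 to Day 3, where 12% of all genes rose and 26.3% fell (1 had an unadjusted p under 0.05). Their median log2 fold change was -0.23, against -0.31 for all genes. *Ppara*, the gene with that p, had a log2 fold change of -1.02 (adjusted p = 0.0638, limma) and was called lower with the replicate block (adjusted p = 0.0447), with no filter (0.0358), with no trend (0.0288) and with a pseudocount of 0.1 (0.0225). *Ppara* held only 0 to 8 estimated fragments per library, with 3 or more in 5 of 8. It was listed at 0 FPKM in both Day 3 libraries, so its Day 3 level was not measurable. Of 5 relatives of *Klf9*, 4 were tested, and 1 rose and 1 fell, against 12% and 26.3% of all genes (median log2 fold change -0.83, against -0.31). All 4 had an unadjusted p under 0.05. *Klf13*, the closest of them, went from 39.5 and 29.8 FPKM to 97.3 and 97.3 (1.48, SE 0.20, adjusted p = 8.74e-04, limma). *Klf16* fell by 1.61 (adjusted p = 0.0165, limma), to 0.787 FPKM in replicate 2 of Day 3. That value was about 2 fragments, under the limit of 3 and so not measurable. *Klf10* had a log2 fold change of -0.90 that was not called (adjusted p = 0.0957, limma) but was with the replicate block (adjusted p = 0.0423). *Klf11* had one of -0.76 that was not called in the main fit or with the block (adjusted p = 0.0926 and 0.0889, limma). *Ppara*, *Klf10* and *Klf11* were named after their values were seen. The *Klf16* call was lost without that library or either Day 0 library (adjusted p = 0.0720 to 0.0919, limma).

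Of 10 further genes that respond to T3 in brain or liver, 7 were tested, and 2 rose and 0 fell by limma, against 12% and 26.3% of all genes (median log2 fold change 0.06, against -0.31), while 3 had an unadjusted p under 0.05. The 2 that rose were the myelin gene *Mbp* (7.11), which also marks OL maturation, and *Rasd2*, a striatal T3 target (1.02). The *Rasd2* call rests on low values, of 0 to 0.29 FPKM up to Day 2 and 1.63 and 1.49 FPKM on Day 3, and with a pseudocount of 0.1 it was lost (adjusted p = 0.155, limma), as it was whichever of the 8 libraries was left out (0.0516 to 0.117). The metabolic targets *Me1* and *Gpd2* had log2 fold changes of 0.44 and -0.26, and the liver target *Thrsp* of -0.27, none of them called. *Thrsp* held 3 or more estimated fragments in only 1 library, so its change was not measurable. With median ratio scaling *Me1* was called higher (0.75, adjusted p = 0.0186, limma), as it was with quantile normalization and without replicate 1 of Day 3 (0.0452 and 0.0403), and *Gpd2* turned to 0.036. *Nrgn*, *Pcp2* and *Shh*, neuronal T3 targets, did not pass the filter.

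The genes whose profiles over the 8 libraries were most like a member's were found among 8655 genes with a mean of at least 5 FPKM, by Pearson's r of log2(FPKM + 1). The points share libraries and the course of differentiation. For *Thra* they were *Cdk18* (r = 0.994), *Clip3* (0.991) and *Parvb* (0.991). *Hr* was most like *Fgd4* (0.993), *Srpk3* (0.989) and *Mxi1* (0.981), and *Klf9* was most like *D5Ertd579e* (0.983), *Igsf3* (0.978) and *Spnb2* (0.975). For *Rxra* they were *Celsr2* (0.971), *Plce1* (0.965) and *Pou3f4* (0.962). The steadier *Rxrb* reached only 0.887 with *Gnpat*, 0.886 with *Lenep* and 0.876 with *Id4*.

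The promoter windows of the members were searched for AGGTCA, the motif that thyroid hormone receptors and RXRs read through their P boxes. RefSeq windows (GRCm38.p6) were given for 7 of the 9 members, 11 windows in all, and the 250 bases before each start were read on both strands. A match was found in 1 window each of *Rxra*, *Rxrg* and *Thrb*, where 14.0% of all 32851 windows hold 1 or more. The window of *Klf9* held none. A match is only a description of these letters.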

How the data were processed

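Stranded messenger RNA of 8 OPC libraries was read as 75-nt paired ends. OmicSoft ArrayStudio was the software with which the authors made the deposited FPKM of 23427 entries, a column per library, with replicates not pooled. The submitters' notes name mm10. The aligner, the gene model and the strand setting are not given in the sources used here. The methods name DESeq2, which needs counts and was not applied to FPKM. Columns were matched to samples by day and replicate number in the labels.

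The members and gene lists were chosen with earlier results of these data known. Depth was inferred from the spacing of low FPKM values of genes with a single annotated transcript, and fragments per gene from depth and the summed exon length of GENCODE M21, so both are approximate and cover counting error only. Tests used R 4.3.3 with limma 3.58.1 (day as a factor, eBayes with a trend, Benjamini-Hochberg adjustment), checked on artificial data beforehand. Balances were tested by exact enumeration in Python 3.11.15 with numpy 2.4.6, pandas 2.3.3 and scipy 1.17.1, and figures were drawn with matplotlib 3.10.9. All members are named, with up to 4 called genes of each list by size of change between Day 0 and Day 3 and each measurable transporter. Some genes of these lists are not reported here, and counts, medians and sums leave them out.

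Pairing was checked by correlating the replicate differences of 2 days across genes. All 6 correlations were over 0.1 (0.16 to 0.29), so the replicate numbers of the labels were taken as pairs in the block. Alternatives were another pseudocount, 2 other filters, median ratio scaling, quantile normalization, the block, no trend, and each library left out. The contrast of the replicate series and the differences within replicate numbers were added after the data were seen.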

Additional observations from a re-analysis of the deposited data

How the results depend on the processing

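The calls of *Thra* and *Hr* by Day 1, and of *Thra*, *Klf9* and *Hr* by Day 3, held under all 15 alternatives, with log2 fold changes at Day 3 of 1.90 to 2.23, 1.25 to 1.65 and 0.67 to 1.21. The 1 member called from Day 1 to Day 2 became 0 with a pseudocount of 0.1, with no filter, with no trend, and with each library left out (0 to 0). *Klf9* was called by Day 1 with quantile normalization only. With the replicate block the calls were the same in number (2, 1, 0 and 3 members), the p of the *Thrb* to *Thra* balance was 0.0313, and no call named in the text was lost. Among the named genes that gained a call by Day 3 were *Ppara*, *Klf10*, *Gfap*, *Aqp4* and *Snap25*.

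The *Thrb* to *Thra* slope was -0.27 with a pseudocount of 0.1 and ran from -0.63 to -0.37 with a library left out. The *Rxrg* balance turned to -0.0043 with that pseudocount and, with median ratio scaling, to -0.039, and ran from -0.14 to 0.19 with a library left out. The step of *Hr* from Day 1 to Day 2 turned to 0.054 with median ratio scaling. The change of *Rxrg* by Day 3 was 0.00072 with median ratio scaling, 0.14 with quantile normalization, and it ran from -0.58 to 0.25 with a library left out. With a library left out, changes by Day 1 ran from -0.92 to 0.35 for *Rxra*, from -0.16 to 0.23 for *Rxrb* and from -0.68 to 1.94 for *Rxrg*, and by Day 3 from -0.17 to 0.23 for *Slc3a2*, from -0.72 to 0.19 for *Gpd2* and from -0.77 to 0.23 for *Thrsp*. By Day 3 *Ncor1* turned to 0.017 and *Gpd2* to 0.036 with median ratio scaling, and *Gpd2* to 0.015 with quantile normalization. None of the values that turned sign was called, and the cause was not tested. A left-out library leaves a day with 1 library, assumed to vary like the others. *Thrb*, *Rxrg* and *Dio2* rest on few fragments, which limits what can be seen of them.

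By Day 3, 1460 genes had risen and 3207 had fallen as deposited, against 2135 and 2047 with median ratio scaling. No group exceeds 2 libraries, so no library could be tested as an outlier within its day.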
